A study of Rattus norvegicus with 10 samples.

Results

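Arginine and nitric oxide metabolism was followed in rat macrophages through 10 genes, namely Nos2, Arg1, Arg2, Ass1, Asl, Gch1, Odc1, Azin1, Sat1 and Srm. All probe sets to which the array annotation gives 1 of these symbols and no other were taken, which gave 14 of the 31042 probe sets tested, and each of the 10 genes had at least 1. The mye-macrophages were resident peritoneal macrophages of Hsdcpb:WU rats that were kept with myelin (100 µg/ml) for 3 days and then given IFNγ and IL-1β (100 ng/ml) for 9 hours. The paper prepared myelin from rat and mouse brain and does not say which of them these macrophages received. The macrophages were obtained by lavage and adherence. The control macrophages came from the same kind of rat, were kept for the same 3 days without myelin and received the same cytokines for the same 9 hours. Each group holds 5 samples with 1 Affymetrix rat array each, numbered 1 to 5 in both groups. No unstimulated macrophages were analysed here, so the response of these genes to the cytokines themselves could not be measured, and the age and sex of the rats are not given in the sources used here.

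Macrophages can send arginine down competing routes. Inducible nitric oxide synthase, encoded by Nos2, turns arginine into nitric oxide and citrulline and is the classical product of rodent macrophages exposed to IFNγ together with a second inflammatory signal, whereas the arginases Arg1 and Arg2 split arginine into urea and ornithine, and Arg1 is a textbook marker of alternative activation in rodents. Ass1 and Asl rebuild arginine from citrulline, and Gch1 is the rate-limiting enzyme for tetrahydrobiopterin, the cofactor that nitric oxide synthases need. Odc1, Srm and Sat1 make, lengthen and break down the polyamines that start from ornithine, and Azin1 shields the enzyme of Odc1 from antizyme.

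In the arrays the level of most of these genes went with the replicate number more than with myelin. None of the 14 probe sets was called higher or lower in mye-macrophages at the threshold used, while Arg1, Ass1, Gch1, Odc1 and Sat1 differed between replicate numbers, with the highest and lowest numbers largely shared by both groups. Over all filtered probe sets 2.69% were called between the groups and 38.7% between the numbers, so that following the number was common on these arrays. The promoters of Gch1 and Odc1 are shown first, since Gch1 was highest and Odc1 was lowest in replicate 4, and the reverse held in replicate 2. The set of RefSeq promoters used here (build GRCr8) held 6 of the 10 genes, and had no entry for Nos2, Arg1, Arg2 and Azin1. The 250 bases before the start are given 5′ to 3′, from chr15:22917413-22917662 on the minus strand for Gch1 and chr6:46058415-46058664 on the plus strand for Odc1, with the matches to 3 short motifs in capitals.
Gch1: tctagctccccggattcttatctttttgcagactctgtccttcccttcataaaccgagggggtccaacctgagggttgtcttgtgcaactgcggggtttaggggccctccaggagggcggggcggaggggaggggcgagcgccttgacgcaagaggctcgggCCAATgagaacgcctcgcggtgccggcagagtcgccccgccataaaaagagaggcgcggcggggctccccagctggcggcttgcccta
Odc1: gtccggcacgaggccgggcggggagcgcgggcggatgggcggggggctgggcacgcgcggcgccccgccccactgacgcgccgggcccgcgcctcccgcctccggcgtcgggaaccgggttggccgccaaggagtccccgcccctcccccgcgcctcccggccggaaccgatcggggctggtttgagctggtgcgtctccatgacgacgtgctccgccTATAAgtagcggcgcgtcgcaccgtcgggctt

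The capitals mark a CCAAT box in Gch1 and a TATA element in Odc1, and both strands were searched. The first of these motifs was found in 2 of the 6 promoters (Gch1 and Srm), where 34% of the 33469 promoters of the same length held it. The TATA element, searched as TATAA, was found in 2 (Ass1 and Odc1), where 24% of all promoters held it. Searched as well was CACGTG, the E-box that Myc and related factors bind, and it was found in 1 (Srm), where 5.59% of all promoters held it. The Odc1 window had a GC content of 78.0% and the Gch1 window 64.4%. Whether any of these matches is used in macrophages was not measured.

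The authors deposited log2 signals after RMA, a method that corrects the background, gives all arrays the same distribution and summarizes the probes of a probe set, and levels are not compared between probe sets. The medians of the arrays lay between 2.30 and 2.34. The groups were compared with limma on all tested probe sets, with the replicate number as a block, because same-numbered samples departed from their group means together. Benjamini-Hochberg adjustment ran over the 15521 probe sets that varied most, and a gene is called higher or lower in mye-macrophages where its adjusted p is under 0.05. Of the 14 probe sets, 12 were among those 15521, and for the other 2 (Nos2 and Srm) the p-value adjusted over all 31042 is given. Of the macrophage markers, 9 of 10 were measured and 7 lay above the median of the array on all 10 arrays, while Mrc1 and Cd163 did not. Whether each sample of a group came from a rat of its own is not in the labels. With the block, the p-values between the groups rest on how the differences between same-numbered samples vary. The spread between the numbers is taken out, and what remains may in part be technical. As these are RNA pools of whole cultures, fewer cells of a type and less RNA per cell cannot be told apart. RNA quality was read from beta-actin, whose 3 prime probe set exceeded the 5 prime one by 3.30 ± 0.32 in mye-macrophages and by 3.02 ± 0.30 in control macrophages (SD on the log2 scale, n = 5 each). An exact two-sided permutation test of the groups, which did not use the pairs, gave p = 0.190. This gap was 3.48, 3.34, 3.03, 2.92 and 3.71 in mye-macrophages 1 to 5, against 2.66, 2.89, 3.24, 2.92 and 3.41 in control macrophages 1 to 5.

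Myelin left all 14 probe sets without a call in either direction. In the blocked limma fit 0 of 14 were higher and 0 were lower at an adjusted p under 0.05 (0.412% of all tested probe sets passed when no filter was used), where 2.69% of the filtered probe sets were called (0.792% higher and 1.9% lower), and a count of 0 among 12 probe sets is near that background. At an unadjusted p under 0.05 there was 1 of the 14, against 12.1% of all tested probe sets, and limma without the block gave the same number, against 4.46%. The log2 fold changes ran from -0.19 to 0.25 with a median of 0.08, against 0.0044 over all tested probe sets, and 9 were above 0 and 5 below. The signals of mye-macrophages and control macrophages overlapped for each of the 14 probe sets, where 0.734% of all probe sets did not overlap. With limma the adjusted p-values of the 12 filtered probe sets were between 0.158 and 0.831, and the lowest without the block was 0.697.

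**Figure D1:**
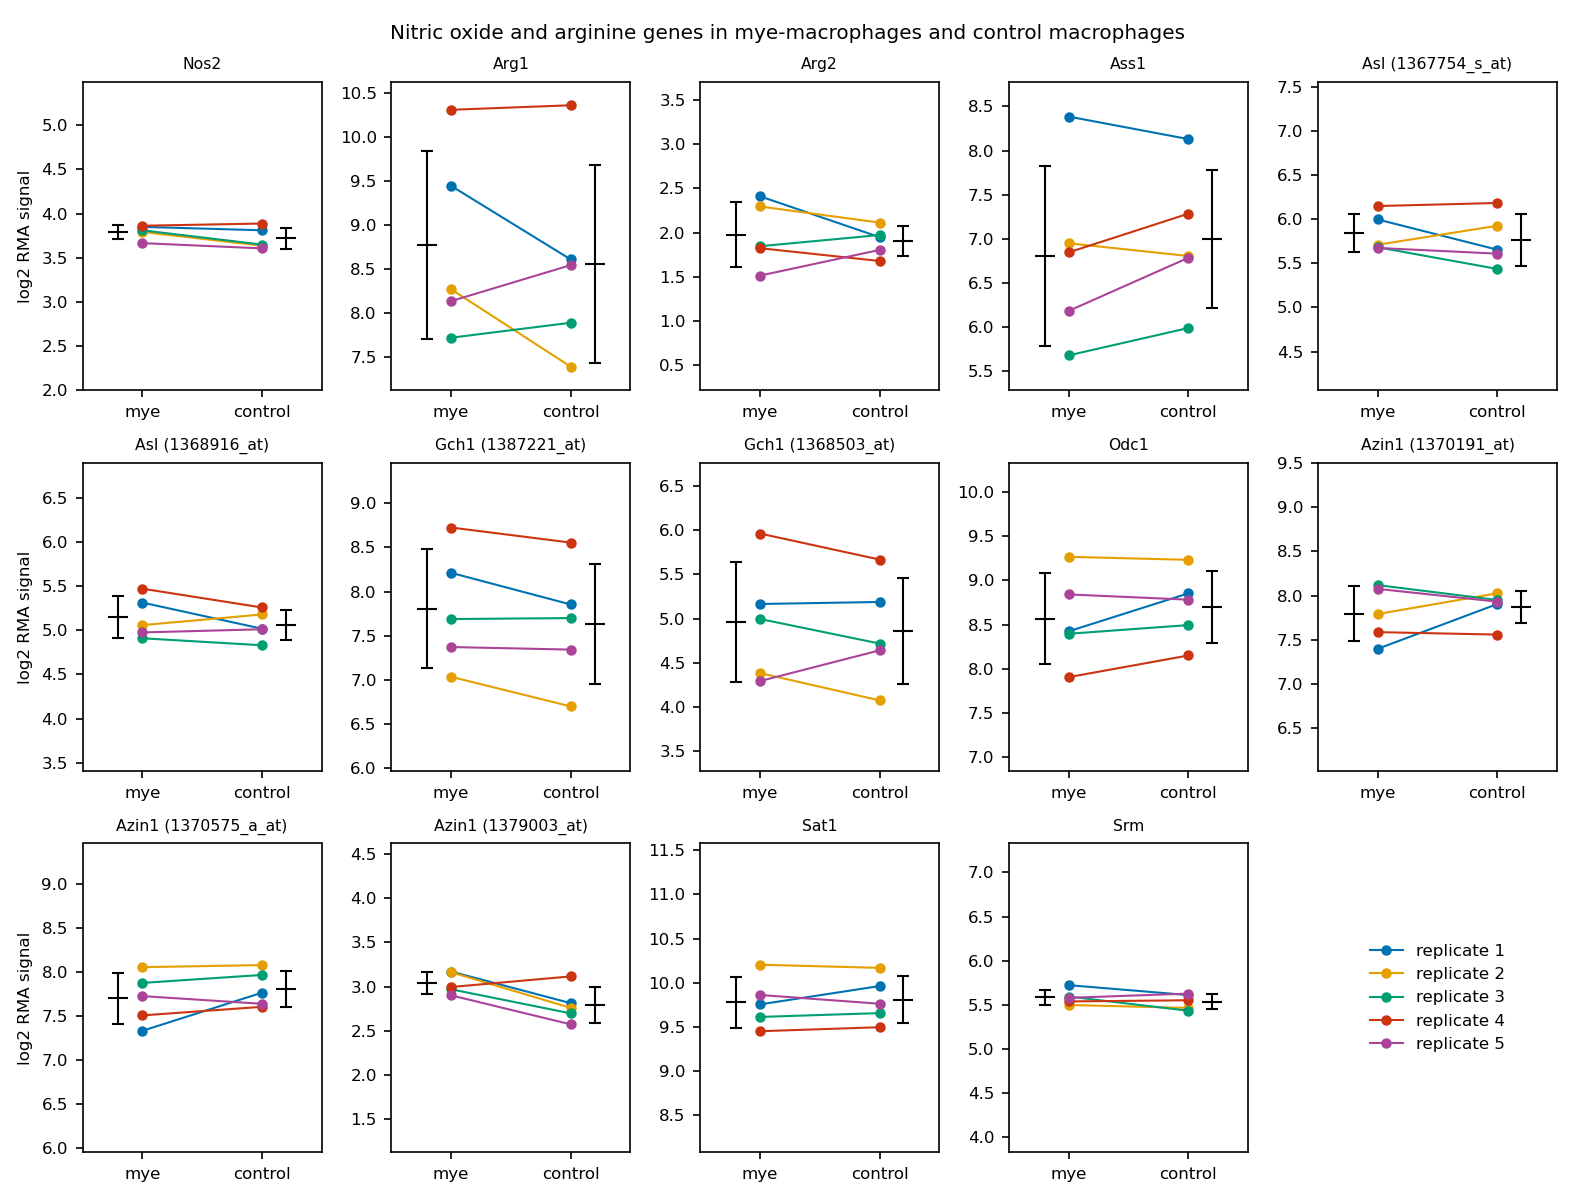
Log2 RMA signal of the 14 probe sets, 1 panel each, in mye-macrophages (left) and control macrophages (right). A line joins the 2 samples of a replicate number, black marks give the mean ± SD of 5 samples, and the log2 axes span at least the same distance in each panel but start at different levels. The lines of Arg1, Ass1, Gch1 and Odc1 lie far apart compared with the shift between the groups, with replicate 4 highest for Arg1 and Gch1 and lowest for Odc1 and Sat1.

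Nos2, the gene of inducible nitric oxide synthase, varied little on its probe set. Its log2 signal was 3.85, 3.79, 3.81, 3.86 and 3.67 in mye-macrophages 1 to 5, against 3.81, 3.64, 3.65, 3.89 and 3.61 in control macrophages 1 to 5. The whole range was 0.281 and both groups fill the same part of it. The log2 fold change was 0.08 (standard error, SE, 0.07, 95% confidence interval, CI, -0.07 to 0.23, limma over all probe sets, adjusted p = 0.699), and the signal was higher in mye-macrophages in 4 of 5 pairs. The interval holds changes between 0.952-fold and 1.17-fold. A second probe set of the array carries the symbols of Nos2 and of the locus Nos2-ps1 and was therefore not counted as a measurement of Nos2. It spanned 1.82 on the log2 scale and had an estimate of 0.26 (95% CI 0.01 to 0.51, limma, adjusted p = 0.228), above the interval of the probe set counted here.

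Gch1, which supplies the cofactor of the synthase, has 2 probe sets, and they gave the same picture. On the first of them, in the order of the panels plotted by sample, the log2 signal was 8.21, 7.03, 7.69, 8.73 and 7.37 in mye-macrophages 1 to 5, against 7.85, 6.70, 7.70, 8.55 and 7.34 in control macrophages 1 to 5. Within each group replicate 4 was highest and replicate 2 lowest, and the distance between them was far larger than that between the groups. Mye-macrophages exceeded their controls by 0.18 on the log2 scale (SE 0.08, 95% CI -0.0015 to 0.35, limma, adjusted p = 0.250), with 4 of 5 pairs higher in mye-macrophages. On the second it was 0.10 (SE 0.10, limma, adjusted p = 0.620), with 3 of 5 pairs higher. The interval of the first probe set reaches up to 1.28-fold and that of the second from 0.913-fold to 1.26-fold.

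Arg1, the cytosolic arginase, had the widest spread of the 14 probe sets between samples. Its log2 signal was 9.44, 8.27, 7.72, 10.30 and 8.14 in mye-macrophages 1 to 5, against 8.61, 7.39, 7.89, 10.36 and 8.54 in control macrophages 1 to 5. Replicate 4 stood above all other samples in both groups, and in pairs 1 and 2 the mye-macrophages were clearly above their controls while in pairs 3, 4 and 5 they were below. Mye-macrophages averaged 8.78 ± 1.07 and control macrophages 8.56 ± 1.12 (SD, n = 5 each). On the log2 scale the difference was 0.22 (SE 0.18, limma, adjusted p = 0.546), and its 95% CI of -0.20 to 0.63 holds changes between 0.873-fold and 1.55-fold, so that a moderate rise of Arg1 could not be told from no change with these samples. The estimate was 0.05 without pair 2 and 0.37 without pair 5, and once the model held the beta-actin gap it was -0.083.

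Arg2, the mitochondrial arginase, was dim, with a signal under the median of the array on all arrays but that of mye-macrophage replicate 1. The log2 signal ran between 1.51 and 2.41 in mye-macrophages and between 1.68 and 2.11 in control macrophages. Between the groups the log2 difference was 0.07 (SE 0.11, 95% CI -0.16 to 0.31, limma, adjusted p = 0.729), and it was -0.02 without pair 1.

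The enzymes that recycle citrulline to arginine were not called either. Ass1, argininosuccinate synthase, had a log2 signal of 8.39, 6.95, 5.68, 6.85 and 6.18 in mye-macrophages 1 to 5, against 8.13, 6.81, 5.99, 7.29 and 6.79 in control macrophages 1 to 5. Replicate 1 was highest and replicate 3 lowest in both groups, and the mye-macrophages were the higher ones in pairs 1 and 2 and the lower ones in pairs 3, 4 and 5, the same division as for Arg1. The log2 fold change of Ass1 was -0.19 (SE 0.12, 95% CI -0.47 to 0.09, limma, adjusted p = 0.428), and it was -0.09 without pair 5. Asl, argininosuccinate lyase, had log2 fold changes of 0.08 and 0.09 on its 2 probe sets (limma, adjusted p = 0.652 and 0.582), with 3 of 5 pairs higher on each. The first of these probe sets is listed under Asl with an accession that RefSeq gives to Hnrnpab, an RNA-binding protein gene. Over the 10 arrays its signal followed the other Asl probe set (Pearson correlation 0.929) more closely than that of Hnrnpab (0.157), a description over samples that come in pairs. On that probe set the fold change of Asl was 0.02 without pair 1 and 0.15 without pair 2.

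Among the polyamine genes, Odc1, ornithine decarboxylase, had a log2 signal of 8.42, 9.27, 8.40, 7.91 and 8.84 in mye-macrophages 1 to 5, against 8.85, 9.23, 8.49, 8.15 and 8.78 in control macrophages 1 to 5. Replicate 2 was highest and replicate 4 lowest in both groups. This gave a log2 fold change of -0.14 (SE 0.09, 95% CI -0.33 to 0.06, limma, adjusted p = 0.408), and 2 of 5 pairs were higher in mye-macrophages. It was -0.06 without pair 1. Sat1, the acetyltransferase that starts the breakdown of polyamines, had 9.75, 10.20, 9.61, 9.45 and 9.86 in mye-macrophages 1 to 5, against 9.96, 10.17, 9.66, 9.50 and 9.76 in control macrophages 1 to 5. Its highest and lowest samples carry the same numbers as those of Odc1. The log2 fold change of Sat1 was -0.03 (95% CI -0.19 to 0.13, limma, adjusted p = 0.831). Srm, spermidine synthase, stayed between 5.43 and 5.72 on all 10 arrays and had a log2 fold change of 0.05 (95% CI -0.10 to 0.20, limma over all probe sets, adjusted p = 0.825).

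Azin1, the antizyme inhibitor that resembles ornithine decarboxylase and shields it from antizyme, was the one gene whose probe sets pointed in opposite directions. On the first and the second of its 3 probe sets the log2 fold change was -0.08 and -0.11 (limma, adjusted p = 0.702 and 0.495), with 3 and 1 of 5 pairs higher in mye-macrophages. The third had the largest estimate of the 14, with a log2 signal of 3.17, 3.16, 2.97, 2.99 and 2.90 in mye-macrophages 1 to 5, against 2.81, 2.76, 2.70, 3.12 and 2.57 in control macrophages 1 to 5. Control replicate 4 lay among the mye-macrophages and the other 4 controls lay below all of them. Its log2 fold change was 0.25 (SE 0.09, 95% CI 0.05 to 0.44), higher in 4 of 5 pairs, and it did not pass (limma, adjusted p = 0.158). Without pair 4 the estimate was 0.34 with an adjusted p of 0.0965 from limma.

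**Figure D2:**
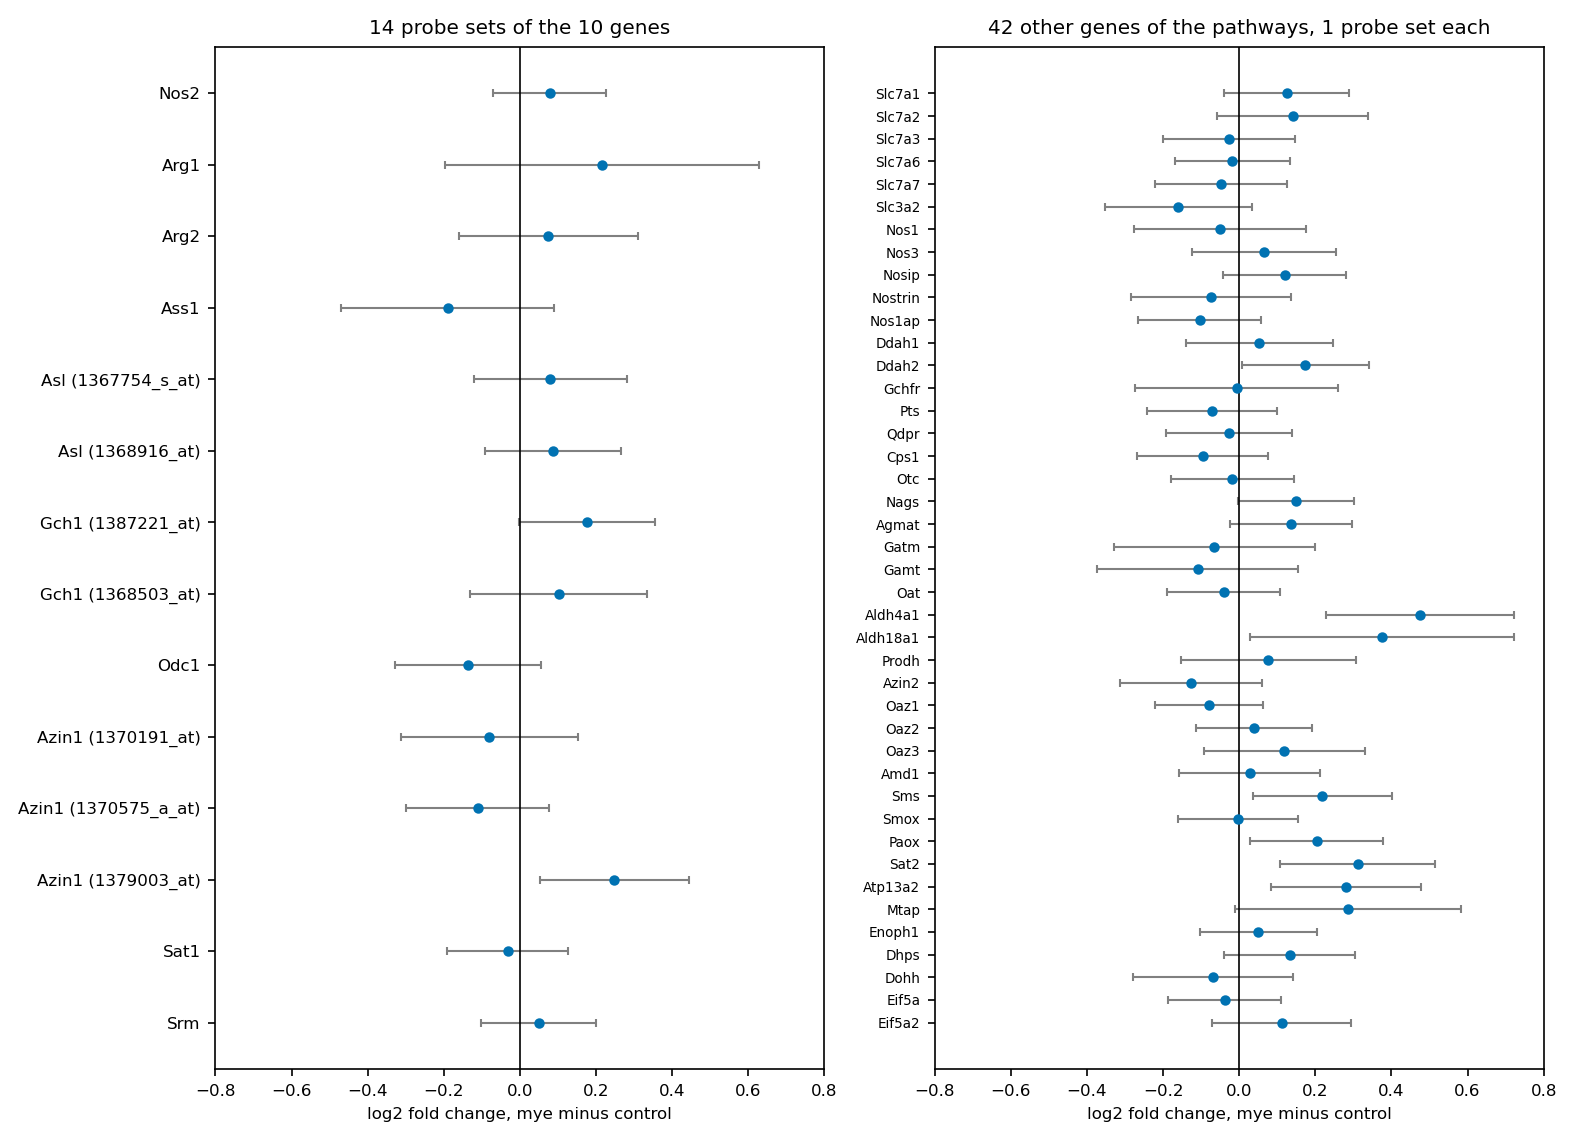
Log2 fold changes (mye-macrophages minus control macrophages) of the 14 probe sets on the left and of 42 other genes of the pathways on the right, from the blocked limma fit. Points are estimates and bars are 95% CIs not adjusted for the number of genes. The bars of 13 of the 14 probe sets cross 0, and Aldh4a1 lies farthest to the right at 0.47.

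Of 47 other genes of arginine transport, nitric oxide synthesis, tetrahydrobiopterin, the urea cycle, polyamines and hypusination, 42 were measured. Only 26 of them were in the filter, and none of these was called higher or lower in the blocked limma fit at an adjusted p under 0.05. Over the filtered probe sets 2.69% were called. The other 16 could not be called in that fit, and with adjustment over all probe sets the lowest adjusted p of the 42 was 0.109 (limma). At an unadjusted p under 0.05 there were 7 of the 42 in the blocked limma fit, where 12.1% of all tested probe sets passed, and 2 without the block. Their median log2 fold change was 0.03, and 22 were above 0 and 20 below. Nearest to a call was Aldh4a1, a mitochondrial enzyme of proline breakdown that yields glutamate, with 0.47 (SE 0.11, limma, adjusted p = 0.0545) and 5 of 5 pairs higher in mye-macrophages. It passed with quantile normalization, with array weights and with a variance prior that follows the signal (limma, adjusted p = 0.0486, 0.0406 and 0.0125), and with that prior Atp13a2 passed as well (adjusted p = 0.0329 from limma). Aldh4a1 did not pass over all probe sets (limma, adjusted p = 0.109), without the block (adjusted p = 0.898) or without any 1 pair, where the adjusted p ranged from 0.0530 to 0.157 and was highest without pair 4. Aldh18a1, which makes proline and ornithine precursors from glutamate, had 0.37 (limma, adjusted p = 0.215).

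Of the 12 measured polyamine genes of the list 7 were in the filter, and none of these passed, where 2.69% of the filtered probe sets did. At an unadjusted p under 0.05 in the blocked limma fit there were 4 of the 12, where 12.1% of all tested probe sets passed. The median of the 12 was 0.08 and 9 were above 0, where 16012 of all 31042 probe sets were. The log2 fold changes of Odc1, Sat1 and 2 of the 3 Azin1 probe sets, given above, were below 0. The 4 largest in size were Sat2 (0.31), a relative of Sat1, Mtap (0.29), which salvages the by-product of polyamine synthesis, Atp13a2 (0.28), a lysosomal exporter of polyamines, and Sms (0.22), spermine synthase. With limma their adjusted p-values were between 0.105 and 0.265. Among 6 arginine transport genes, the heavy chain gene Slc3a2 had -0.16, and the cationic amino acid transporter genes Slc7a2 and Slc7a1 had 0.14 and 0.13. Of the genes that bear on nitric oxide synthases 7 of 8 were measured, and the largest estimate was that of Ddah2 (0.17), which breaks down methylated arginines that inhibit the enzymes. The 3 measured tetrahydrobiopterin genes lay between -0.07 (Pts) and -0.01 (Gchfr, the feedback regulator of Gch1), and the 4 hypusination genes between -0.07 (Dohh) and 0.13 (Dhps).

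Most of the spread lay between replicate numbers, the exception being the third Azin1 probe set (35.2% between numbers and 41% between the groups). For Arg1, 91.5% of the sum of squares over the 10 samples lay between replicate numbers and 1.2% between the groups, and for the first Gch1 probe set the shares were 96.4% and 2.07%. Over the 14 probe sets the median share of the numbers was 79.6% and that of the groups 2.78%, against 67.3% and 5.67% over the filtered probe sets. An F test of the replicate numbers beside the groups in the same limma fit, added after the values were seen, called 8 of the 12 filtered probe sets at an adjusted p under 0.05, where 38.7% of the filtered probe sets passed. These were Arg1 (adjusted p = 0.000746), Ass1 (adjusted p = 0.000198), both of Gch1 (adjusted p = 7.08e-05 and 0.000573), Odc1 (adjusted p = 0.00120), Sat1 (adjusted p = 0.00667), 1 of the 2 of Asl (adjusted p = 0.0412) and 1 of the 3 of Azin1 (adjusted p = 0.0330), all from limma. What a number stands for (rat, day or plate) is not in the labels.

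**Figure D3:**
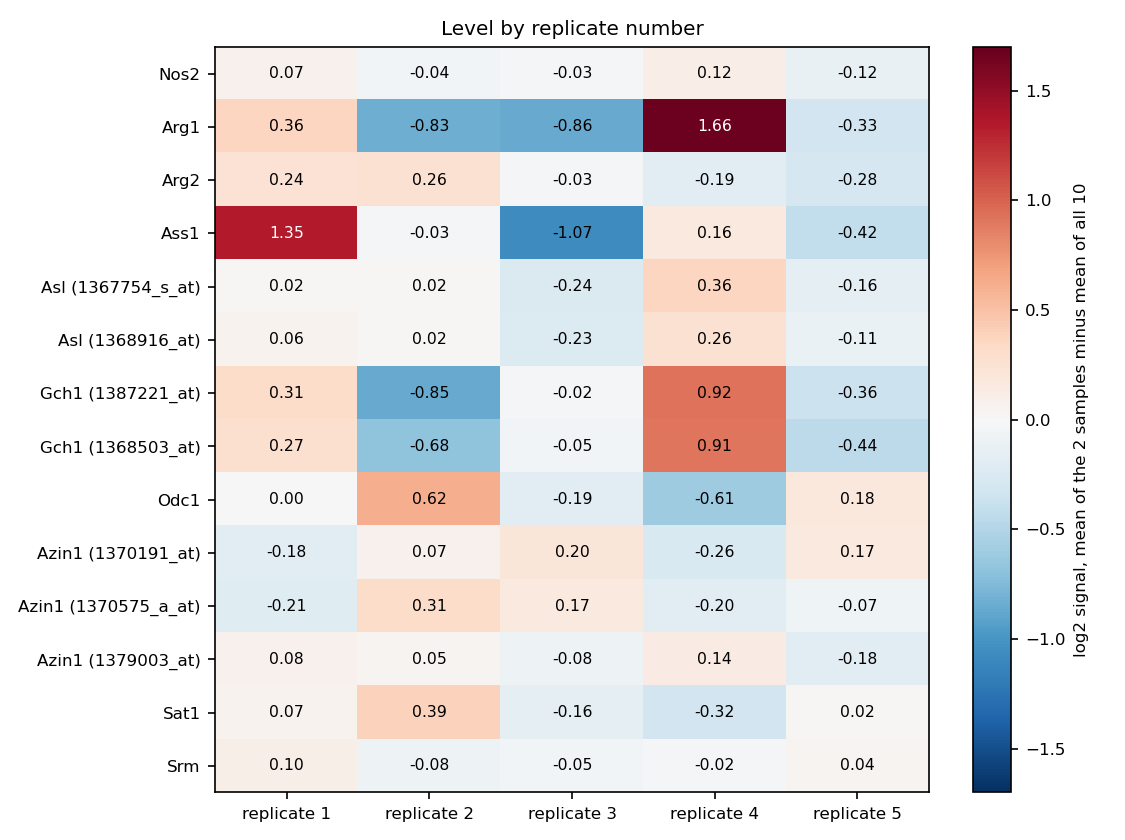
Mean log2 signal of the mye-macrophage and the control sample of each replicate number, as the difference from the mean of all 10 samples, for the 14 probe sets (red above, blue below). The column of replicate 4 holds the highest value of Arg1 (1.66) and Gch1 (0.92 and 0.91) and the lowest of Odc1 (-0.61) and Sat1 (-0.32).

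Replicate 4 carried the extremes of most of these genes. Its mean of both samples was 1.66 above the overall mean for Arg1, 0.92 and 0.91 for the Gch1 probe sets and 0.36 and 0.26 for the Asl probe sets, and it was 0.61 and 0.32 below that mean for Odc1 and Sat1. Replicate 2 was the opposite, with Gch1 lowest at -0.85 and -0.68, Arg1 at -0.83 and Odc1 and Sat1 highest at 0.62 and 0.39. Ass1 had an order of its own, with replicate 1 highest at 1.35 and replicate 3 lowest at -1.07. From the lowest to the highest number the level differed 5.75-fold for Arg1, 5.36-fold for Ass1, 3.42-fold for Gch1 on the first probe set and 2.33-fold for Odc1, and 1.18-fold for Nos2 and 1.14-fold for Srm. Without replicate 4 the distance between the highest and the lowest number was 1.22 for Arg1 in place of 2.52 on the log2 scale, 1.17 in place of 1.77 for the first Gch1 probe set and 0.80 in place of 1.22 for Odc1, and Arg1, Ass1, both Gch1 probe sets, Odc1 and Sat1 still differed between numbers (6 probe sets, limma, highest adjusted p = 0.0498). Without replicate 2 there were also 6, with 1 Asl probe set in and Sat1 out.

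Markers of other cells moved with the replicate numbers as well. Of 10 markers of granulocytes and mast cells 7 were measured, and their summed linear signal ran between 22.2 and 313 in mye-macrophages and between 22.8 and 289.5 in control macrophages. By number the sum was 301 in replicate 4, against 22.5 in replicate 2 and 34.4, 49.0 and 69.4 in replicates 3, 5 and 1. Highest in replicate 4 were the mast cell protease genes Cma1 (a log2 signal of 4.81 in the mye-macrophages, against 4.73 in the control macrophages), Cpa3 (7.99, against 7.92) and Tpsab1 (4.17, against 3.34), while Epx, Prg2, Camp and S100a8 lay below the median of the array in all 10 samples. Replicate 4 is the number in which Arg1 and Gch1 were highest and Odc1 and Sat1 lowest, and the part of mast cells in these levels was not tested. Of the 7 markers 5 were in the filter, and none of these was called between the groups in the blocked limma fit, where 2.69% of the filtered probe sets were. Without replicate 4 the comparison with control macrophages gave 0.28 for Arg1 and 0.18 for the first Gch1 probe set, neither of them called.

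**Figure D4:**
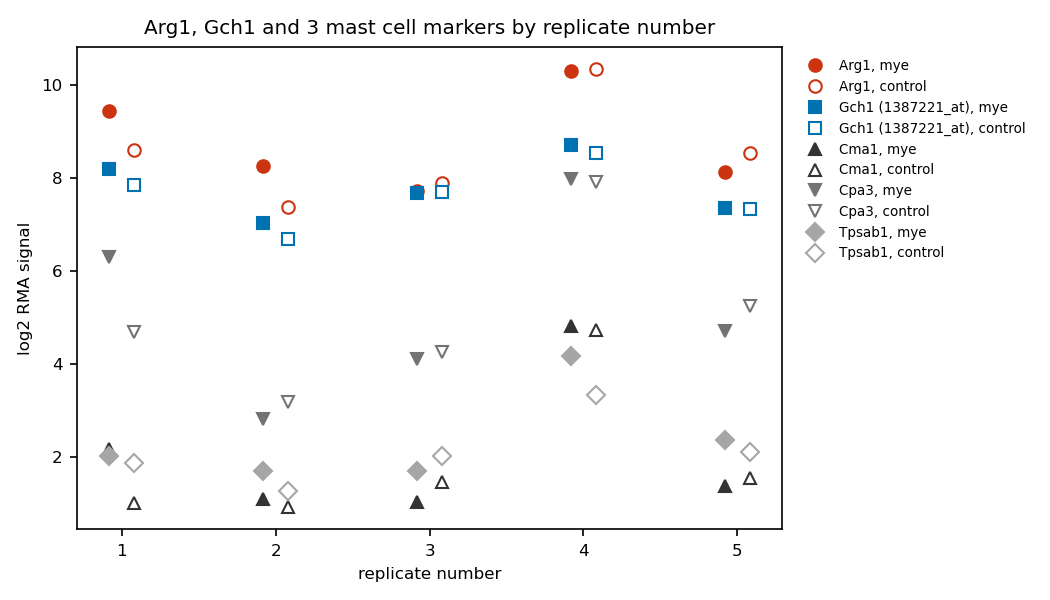
Log2 RMA signal of Arg1, the first Gch1 probe set and the mast cell marker genes Cma1, Cpa3 and Tpsab1 by replicate number, with filled symbols for mye-macrophages and open symbols for control macrophages. All 5 genes are highest in both samples of replicate 4.

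Macrophage markers differed between the numbers too. Of the 9 measured, 6 were in the filter, and all 6 were called by the F test (limma). Of the granulocyte and mast cell markers 5 were in the filter and 4 were called. Over all filtered probe sets 38.7% were called between the numbers. The receptor genes Mrc1 and Cd14 and the integrin gene Itgam were highest in replicate 4 and lowest in replicate 2, as Gch1 was. From the lowest to the highest number they spanned 3.83, 1.96 and 1.32 on the log2 scale. The other called markers, Csf1r, Aif1 and Adgre1, were highest in replicate 3 and lowest in replicate 2. Lyz2, outside the filter, was highest in replicate 1 and lowest in replicate 4. Mrc1, the mannose receptor gene and like Arg1 a marker of alternative activation, was also higher in mye-macrophages, by 0.71 (SE 0.12, limma, adjusted p = 0.0265) and in 5 of 5 pairs. That call was lost over all probe sets (limma, adjusted p = 0.0530), without the block (adjusted p = 0.935) and without pair 1, 2, 4 or 5, where the estimate was between 0.61 and 0.81 and the adjusted p between 0.0510 and 0.0947. Markers of T, B and NK cells, 7 of 9 measured with 4 below the median of the array in all samples, summed to between 20.9 and 43.4 in mye-macrophages and between 22.8 and 35.5 in control macrophages, with the highest mean (39.4) in replicate 1, where Ass1 was highest. The T and NK cell genes Cd3e, Cd3g, Cd3d, Ncr1 and Klrb1a were highest in replicate 1. The B cell genes were not, with Cd79b highest in replicate 4 and Ms4a1 in replicate 3. Between numbers, Cd3e, Cd3g and Klrb1a were called (limma F test, adjusted p = 0.00953, 0.0496 and 0.000958). Cd3d, Ncr1, Cd79b and Ms4a1, the 4 below the median of the array, were not. Markers of mesothelial cells and fibroblasts, 7 of 8 measured, summed to between 26.0 and 27.8 in mye-macrophages and between 25.8 and 28.5 in control macrophages. The macrophage markers together, a linear sum in which the genes of highest signal weigh most, came to between 9153 and 12315 in mye-macrophages and between 8328 and 11365 in control macrophages, with the lowest mean (8740) in replicate 2. Oligodendrocyte and myelin markers, 7 of 8 measured, summed to between 211.7 and 276 in mye-macrophages and between 168 and 208.7 in control macrophages, with no overlap. Of these, the myelin protein gene Mobp was higher in mye-macrophages by 3.60 (limma, adjusted p = 0.00193) and Bcas1 by 1.76 (limma, adjusted p = 0.00333), each in 5 of 5 pairs. Both stayed called when any 1 pair was left out but not without the block (limma, adjusted p = 0.208 and 0.469). Of the other 5, Mal and Cnp were not called, and Mbp, Mag and Mog lay outside the filter and could not be called. The log2 fold change was -0.20 on the probe set taken for Mbp and -0.14 for Mal, and 0.12, 0.13 and 0.08 for Mag, Mog and Cnp. The paper lists MBP as upregulated on another probe set. The part of all these markers in the levels of the arginine genes was not tested.

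Other probe sets followed Arg1 and Nos2 closely over the 10 arrays. Among 10862 (Arg1) and 10863 (Nos2) filtered probe sets with 1 symbol, those most correlated with Arg1 were of Kiaa0040 (0.971), the protease inhibitor gene Serpinb1a (0.971), Bean1 (0.969), Depdc5 (0.967), which acts in mTORC1 control, and the lipoprotein receptor gene Vldlr (0.966). All 5 were highest in replicate 4, as Arg1 was. The closest to Nos2 were Mcur1 (0.958), the syndecan gene Sdc3 (0.944), 2 probe sets of the mannosidase gene Man1a1 (0.938 and 0.930) and Map2 (0.928), and all were highest in replicate 4 and lowest in replicate 5, as Nos2 was. These are Pearson correlations over 10 arrays that come in 5 pairs, given as a description. The probe sets were picked by this correlation, so a highest or lowest number shared with Arg1 or Nos2 follows largely from the choice. The Nos2 probe set spanned only 0.281 and was not called between numbers (limma F test over all probe sets, adjusted p = 0.459). Map2 and Vldlr were dim, with a mean log2 signal of 0.63 and 1.67, under the medians of the arrays.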

How the data were processed

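Total RNA of 5 mye-macrophage and 5 control macrophage samples was hybridized to Affymetrix rat expression arrays, each sample to its own array. What the authors deposited were log2 values made by RMA with the affy package, for 31099 probe sets. Arrays have no read depth, so that the number of samples limits the precision. The 57 control probe sets were left out. Symbols came from the array annotation, which gives 1 symbol to 20826 of the 31042 probe sets tested, several to 436 and none to 9780.

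Mye-macrophages were compared with control macrophages in R 4.3.3 with limma 3.58.1, blocking on the replicate number. Adjustment was by Benjamini and Hochberg over those probe sets with the larger interquartile range (50%, as in the methods), at a threshold of 0.05. The methods use no block, and a fit without it was an alternative. The numbers come from the labels and pair the samples: within every number, deviations from the mean of the group correlated at 0.404 or more, over the limit of 0.1, and across numbers at 0.279 at most. The fit was tested on simulated data. Other genes came from lists of pathways and markers (1 probe set per gene, that with the highest mean). Of the pathway lists, the genes called and at most 4 a list by size of the fold change were named. The 5 probe sets most correlated with Arg1 and with Nos2 were named too. The genes, lists and tests were chosen with earlier results of these data known. Alternatives covered the block, the test, the filter, scaling, the variance prior, array weights, the beta-actin gap and each pair left out. The F test of the replicate numbers, its alternatives and the leaving out of pairs for called markers were chosen after seeing the data.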

Additional observations from a re-analysis of the deposited data

Results flagged for a closer look

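In 28 groups of 5 samples checked (14 probe sets in 2 groups), 1 sample stood apart from the other 4 of its group. Control macrophage replicate 4 had a log2 signal of 7.56 on the first Azin1 probe set, against 7.90 or more in the other control macrophages, and this gap was 0.738 of the range of the group. Chance flags about 1 in 20 such groups. Mye-macrophage replicate 4 had 7.59 on the same probe set.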

How the results depend on the processing

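Of 16 alternatives, 7 leave the estimates as they are by construction. In the 9 that can move them, the 14 log2 fold changes kept their direction in 120 of 126 values. When the beta-actin gap entered the model as a covariate Arg1 had -0.083, Arg2 -0.054 and the first Azin1 probe set 0.093, each with the sign turned. Leaving out 1 pair at a time gave -0.022 to 0.17 for Arg2, -0.14 to 0.026 for that Azin1 probe set and -0.065 to 0.012 for Sat1, with the sign turned in each case without replicate 1. The cause was not tested. The number of the 14 called higher or lower was 0 in all 16, among them the fit with no replicate block, the methods' t-test and the paired t-test. Lowest was the adjusted p of 0.0965 (limma) for the third Azin1 probe set without replicate 4. Leaving out the block changed no call of the 14 or of the 42 other pathway genes. Of those 42, 1 was called higher with quantile normalization, 2 with eBayes with trend and robust and 1 with array weights, and 0 when any 1 pair was left out. Between replicate numbers 6 to 10 probe sets differed when a pair was left out. With 5 pairs, the confidence intervals given in the text show the precision of the estimates in the blocked fit. They are not adjusted for the number of genes. Each holds for its own probe set and does not bound the change of the gene.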

Other observations

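A probe set that the annotation gives to both Nos2 and Nos2-ps1 cannot be assigned to either, and it was looked at after the values were seen. Its log2 signal was 5.17, 4.26, 5.04, 5.59 and 3.77 in mye-macrophages 1 to 5, against 4.66, 3.89, 4.64, 5.27 and 4.06 in control macrophages 1 to 5. Replicate 4 was highest in both groups, as for Gch1. The log2 fold change was 0.26 (standard error 0.11, 95% interval 0.01 to 0.51), higher in mye-macrophages in 4 of 5 pairs, and it was not called (adjusted p = 0.228 from the blocked limma fit). Of the sum of squares 89.7% lay between replicate numbers and 4.75% between the groups (limma F test of the numbers, adjusted p = 0.000764).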
